A study of Homo sapiens with 32 samples.

Results

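Aminoacyl-tRNA synthetases are the enzymes that join each amino acid to its transfer RNA, the step that supplies the ribosome with building blocks. Human cells carry one set of these enzymes for the cytosol and another, also encoded in the nucleus, that is imported into mitochondria for the mitochondrial ribosome. Of 35 synthetase genes followed here, 19 belong to the cytosolic class and 16 to the mitochondrial class, which was taken from symbols ending in 2. GARS1 and KARS1, the glycyl- and lysyl-tRNA synthetases, serve both compartments and were kept with the cytosolic class. The members were found through the array's gene annotation, with the brightest probe standing for each gene, and 33 of the 35 had a probe. These were all 19 cytosolic genes and 14 of the mitochondrial ones. WARS2 and YARS2, the mitochondrial tryptophanyl- and tyrosyl-tRNA synthetases, were not analysed here for want of an annotated probe. All 33 passed the filter on dim probes and stood among 10598 genes tested.

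Several cytosolic synthetase genes are known targets of ATF4, a transcription factor made when the kinases of the integrated stress response (among them EIF2AK4, which binds uncharged tRNA) phosphorylate the initiation factor eIF2. ATF4 pairs with C/EBP proteins on composite elements and is known for raising amino acid synthesis, amino acid transport and tRNA charging together. Cyclophosphamide is a prodrug of a DNA-alkylating mustard and needs oxidation by liver enzymes. Its hydroperoxy derivative differs by one added hydroperoxy group and breaks down in culture medium to the same activated metabolite without that step.

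RNA came from PC-3, a cell line established from a human prostate adenocarcinoma, and was hybridised to 32 single-colour Illumina bead arrays. Cells received 4-hydroperoxycyclophosphamide, called active in the labels, for 10 h (2 arrays), 24 h (2 arrays) or 48 h (3 arrays), and vehicle, which the sample labels call untreated, for the same times (3 arrays each). In a separate experiment they received cyclophosphamide, called inactive, for 10 h (3 arrays), 24 h (3 arrays) or 48 h (2 arrays), and vehicle with as many arrays at each time. The dose of the active compound was 5.5 µM, while the labels differ on whether this dose also held for the inactive one. Every group shares the same cell line and medium, and the labels do not say if replicate arrays stand for separate cultures. The p-values therefore rest on array-to-array spread, which may be technical. An array of a whole culture also cannot tell fewer expressing cells from less RNA per cell.

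The 75th percentile of raw intensity lay between 431 and 656 units on the 16 arrays of the active-compound experiment and between 275 and 416 on the 16 of the inactive-compound experiment. The residual SD over genes was 0.119 and 0.215 on the log2 scale in these experiments, so a change of a given size is measured less precisely for the inactive compound. Of 5 epithelial markers, 4 passed the filter (KRT8, KRT18, KRT19 and EPCAM, with log2 levels from 10.1 to 12.7 over all arrays), and CDH1 did not. KLK3, the prostate antigen that PC-3 is known to lack, did not pass, and of 8 markers of other cells 3 passed (PTPRC, PECAM1 and COL1A1, from 6.52 to 7.59). On the axis that separates 10 h from 24 h, 4 arrays of the inactive-compound experiment lay on the side of the other time and are called displaced here: cyclophosphamide and vehicle of replicate 3 at both times. Vehicle replicate 3 at 10 h of the active-compound experiment also lay on the 24 h side. Values without the displaced arrays stand beside those of the inactive compound and of the differences between compounds, and values without the vehicle array beside those of the active compound at 10 h.

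Treatment with the active compound was followed by higher levels of a group of cytosolic synthetase transcripts, with little of this at 10 h. In limma's test with Benjamini-Hochberg adjustment over all genes, 1 of 33 synthetases passed an adjusted p of 0.05 at 10 h (higher), beside 1.65% of all genes (0.547% higher and 1.1% lower). At 24 h 2 passed, both higher, beside 1.92% of all genes (1.13% higher and 0.783% lower). At 48 h 5 passed, 4 higher and 1 lower, beside 9.79% (4.93% higher and 4.86% lower). Averaged over the times, 9 of 33 passed, 8 higher and 1 lower, beside 10.9% of all genes (5.41% higher and 5.5% lower). The share of synthetases called was above that of all genes at each of these, although 1 gene alone makes that difference at 10 h. At 24 h and 48 h the difference also rests on few genes, and it was not tested. Without vehicle replicate 3 at 10 h, 0 synthetases passed at 10 h and 7 on average. By class, the cytosolic counts were 0, 2, 4 and 6 of 19 at 10 h, 24 h, 48 h and on average, and every one of these calls was higher with the compound. The mitochondrial counts were 1, 0, 1 and 3 of 14, in both directions.

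**Figure D1:**
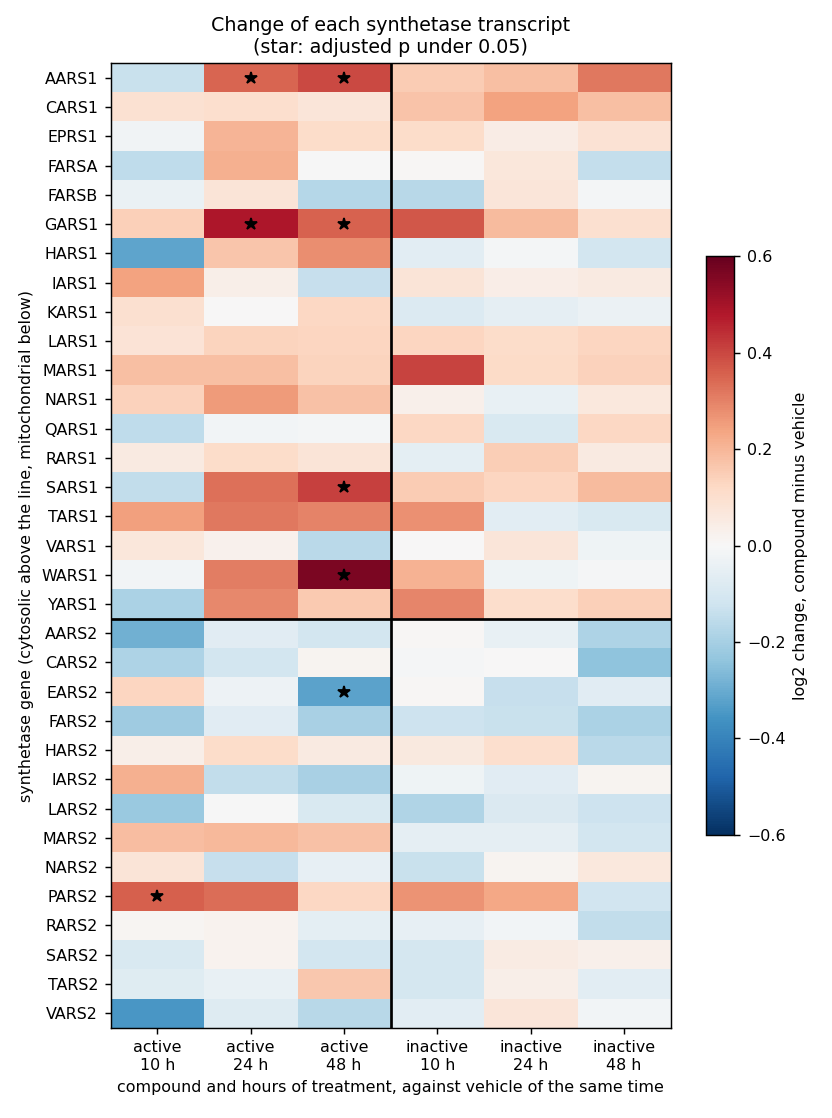
Log2 change of 33 synthetase transcripts (rows, cytosolic above the line and mitochondrial below) for each compound against vehicle of the same time (columns, hours). Red is higher and blue lower with the compound, and a star marks an adjusted p under 0.05. Stars are on AARS1 and GARS1 at 24 h and 48 h, SARS1, WARS1 and EARS2 at 48 h and PARS2 at 10 h, and no star is in the inactive columns.

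The classes moved apart in their medians. At 24 h of the active compound the median change was 0.18 over the cytosolic class, with 18 of 19 genes positive, and -0.04 over the mitochondrial class, with 5 of 14 positive. Over all genes tested the median was -0.00 and 48.7% were positive. At 48 h the medians were 0.13 (14 of 19 positive) and -0.08 (5 of 14), against -0.01 and 48.4% over all genes. At 10 h they were 0.06 (10 of 19) and -0.03 (7 of 14), without GARS1 and KARS1 the cytosolic median was -0.02, and without vehicle replicate 3 at 10 h the class medians were 0.02 and -0.00. Averaged over the times, 16 of 19 cytosolic and 4 of 14 mitochondrial changes were positive, with medians of 0.09 and -0.05. Removing GARS1 and KARS1 left the cytosolic medians at 24 h, 48 h and on average at 0.18, 0.13 and 0.09. The mitochondrial genes were mostly dimmer, with mean log2 levels from 6.74 (PARS2) to 11.78 (IARS2). Cytosolic levels ran from 7.10 (CARS1) to 12.95 (QARS1). The classes were not compared with genes of like level.

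Array by array, the median over the cytosolic class (each gene's log2 level minus its mean in the experiment) was 0.15 and 0.11 with the active compound at 24 h and -0.12, -0.03 and -0.05 with vehicle. It was 0.11, 0.08 and 0.13 with the compound at 48 h and 0.01, -0.03 and 0.02 with vehicle. At both times every treated array lay above every vehicle array. At 10 h the medians were -0.01 and -0.06 with the compound and -0.11, -0.06 and -0.13 with vehicle, and the groups overlapped. For the mitochondrial class the groups overlapped at 24 h (-0.05 and 0.01 with the compound, 0.01, -0.02 and -0.01 with vehicle) and at 48 h (-0.05, 0.03 and -0.01 with the compound, 0.02, 0.05 and 0.05 with vehicle).

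**Figure D2:**
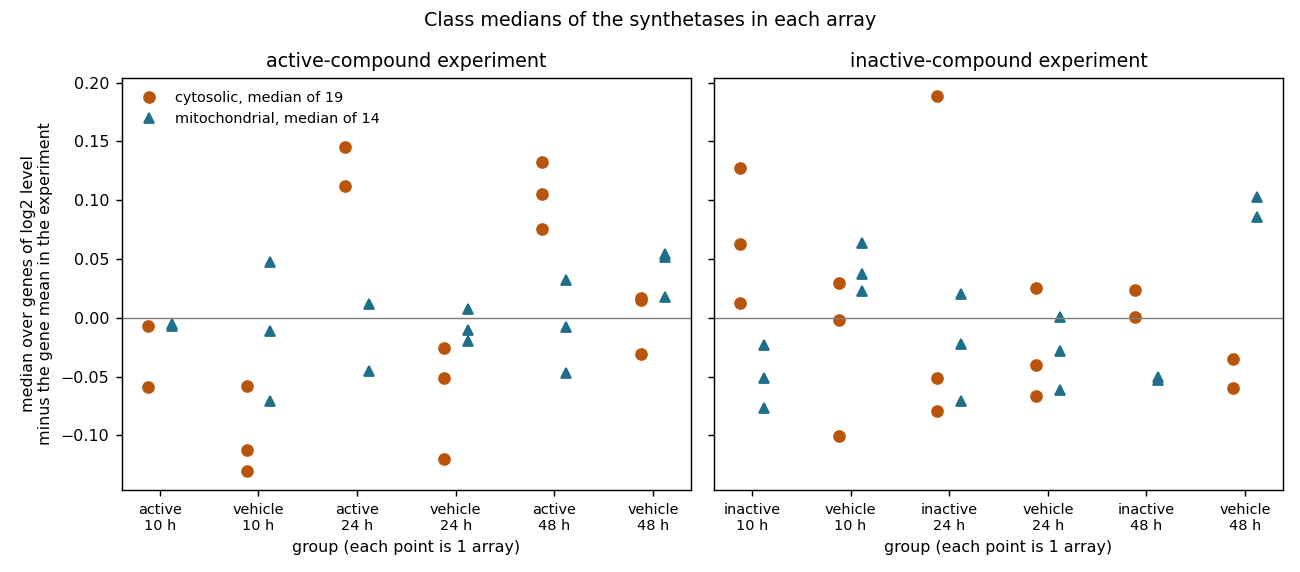
Median over the genes of each class of the log2 level minus the gene's mean in its experiment, with 1 point per array; circles are the 19 cytosolic and triangles the 14 mitochondrial synthetases. Each compound group stands left of its vehicle. The cytosolic points of the active compound at 24 h and 48 h all lie above those of vehicle. The mitochondrial points of that experiment overlap. With the inactive compound, the mitochondrial points at 10 h and 48 h all lie below vehicle. The cytosolic points at 48 h all lie above it.

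GARS1, which charges tRNA with glycine in the cytosol and in mitochondria, had the largest average change of the 33 with the active compound. Its log2 level was 12.78 and 12.52 with the compound at 24 h, against 12.04, 12.23 and 12.22 with vehicle, a change of 0.49 (SE 0.10, adjusted p = 0.00984). At 48 h it was 12.72, 12.76 and 12.72 with the compound, against 12.37, 12.46 and 12.31 with vehicle (0.35, SE 0.09, adjusted p = 0.0134). The groups did not overlap at either time. Genes shown by array, here and below, were named for their calls or after their values were seen. The share of all genes without overlap was not computed, so separation of their groups adds no support to the calls. The call at 24 h was lost without active-compound replicate 1 (adjusted p = 0.291) or vehicle replicate 1 (0.0634), and the one at 48 h without vehicle replicate 3 (0.0648). At 10 h the groups overlapped, with 12.45 and 12.18 under the compound and 12.23, 12.06 and 12.21 under vehicle. The average over the times was 0.33 (SE 0.06, adjusted p = 0.00043), a 1.25-fold higher level. KARS1, the other enzyme that serves both compartments, changed by 0.10, 0.00 and 0.13 at 10 h, 24 h and 48 h, and its average of 0.08 did not pass the test (SE 0.06, adjusted p = 0.467).

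AARS1, the alanyl-tRNA synthetase, had log2 levels of 12.38 and 12.37 with the active compound at 24 h, against 12.13, 12.03 and 11.91 with vehicle (0.35, SE 0.09, adjusted p = 0.0343). At 48 h the levels were 12.66, 12.57 and 12.65 with the compound, against 12.25, 12.25 and 12.20 with vehicle (0.40, SE 0.08, adjusted p = 0.00141). All treated arrays were above all vehicle arrays at both times. The order was the opposite at 10 h, with 11.76 and 11.91 under the compound and 11.93, 11.94 and 12.04 under vehicle, a change of -0.14 that did not pass the test (adjusted p = 0.439). The change at 48 h minus the change at 10 h was 0.53 (SE 0.12, adjusted p = 0.00865). That difference was lost without active-compound replicate 1 at 10 h (0.45, adjusted p = 0.0795), as were the calls of AARS1 at 24 h without either treated array or without vehicle replicate 2 or 3 (adjusted p from 0.0789 to 0.244).

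WARS1, the tryptophanyl-tRNA synthetase, which is also known as an interferon-induced gene, had the largest single change. Its log2 level at 48 h was 10.14, 10.02 and 9.98 with the active compound, against 9.56, 9.54 and 9.35 with vehicle, a change of 0.56 (SE 0.08, adjusted p = 8.44e-05). At 24 h it was 9.66 and 9.70 with the compound, against 9.32, 9.41 and 9.37 with vehicle (0.31, SE 0.09), which missed the threshold at an adjusted p of 0.105. The treated arrays were above the vehicle arrays at both times. The groups overlapped at 10 h, with 9.58 and 9.33 under the compound and 9.51, 9.53 and 9.38 under vehicle. The average change was 0.28 (SE 0.05, adjusted p = 0.000806), and the change at 48 h exceeded that at 10 h by 0.58 (SE 0.13, adjusted p = 0.0082), a call that held without any one array.

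SARS1, the seryl-tRNA synthetase, had levels of 12.45, 12.20 and 12.30 with the active compound at 48 h, against 11.88, 11.85 and 11.98 with vehicle (0.41, SE 0.09, adjusted p = 0.00399). At 24 h it had 12.15 and 12.08 with the compound, against 11.69, 11.78 and 11.88 with vehicle (0.33, SE 0.10, adjusted p = 0.109). Its groups did not overlap at either time. At 10 h its levels were 11.38 and 11.66 with the compound and 11.73, 11.53 and 11.74 with vehicle, which overlapped. The change at 48 h minus that at 10 h was 0.56 (SE 0.14, adjusted p = 0.017), and without active-compound replicate 1 at 10 h it was 0.42 (adjusted p = 0.168). The average of 0.20 (SE 0.06, adjusted p = 0.0249) was lost without active-compound replicate 2 at 10 h, 1 at 24 h or 1 at 48 h, or without vehicle replicate 2 at 10 h or 1 at 24 h (adjusted p from 0.0519 to 0.0823).

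TARS1 and MARS1, the threonyl- and methionyl-tRNA synthetases, passed only as averages over the times. TARS1 had 11.91 and 11.44 at 10 h, 11.75 and 11.63 at 24 h and 11.79, 11.59 and 11.62 at 48 h with the active compound. With vehicle it had 11.45, 11.46 and 11.39 at 10 h, 11.30, 11.42 and 11.41 at 24 h and 11.25, 11.46 and 11.39 at 48 h. Its groups overlapped at 10 h only, through the second treated array, and its average change was 0.29 (SE 0.06, adjusted p = 0.00311). MARS1 had 9.78 and 9.69 at 10 h, 9.83 and 9.91 at 24 h and 9.93, 9.89 and 10.00 at 48 h with the compound, against 9.56, 9.51 and 9.60, then 9.69, 9.70 and 9.68, then 9.86, 9.76 and 9.80 with vehicle. Its treated arrays were above vehicle at every time, by a small amount (average 0.17, SE 0.04, adjusted p = 0.0185), and its adjusted p was 0.0582 without active-compound replicate 1 at 10 h and 0.0646 without replicate 2 at 24 h. MARS1 is a subunit of the multisynthetase complex, a cytosolic assembly that also holds EPRS1, IARS1, KARS1, LARS1, QARS1 and RARS1, and it was the only one of these 7 that passed for any contrast of the active compound with vehicle. Of the 12 cytosolic genes outside the complex, 5 passed on average, and their median change was 0.27 at 24 h with 12 of 12 positive, against 0.11 for the 7 in the complex with 6 positive. The difference between these subgroups was not tested.

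**Figure D3:**
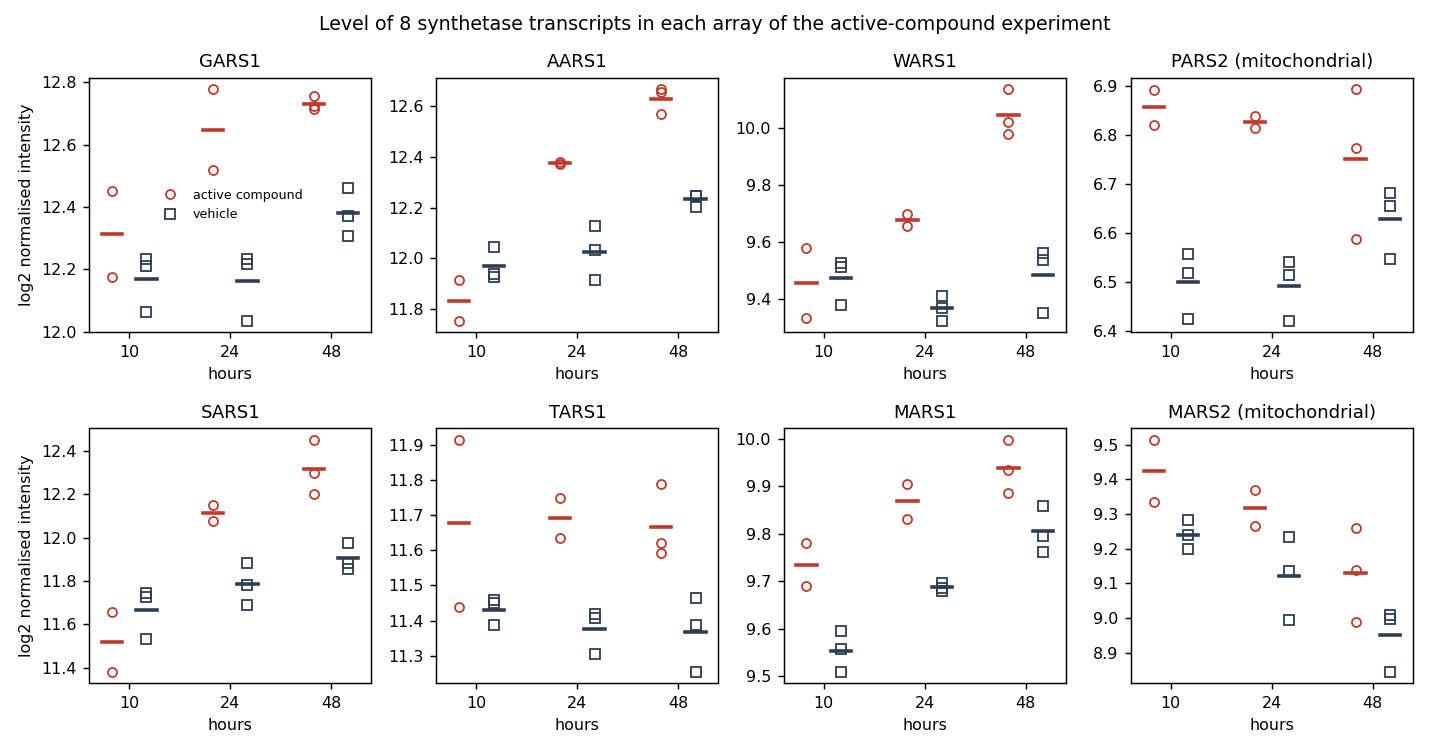
Log2 normalised intensity (y axis, on its own scale for each gene) of 8 synthetases in each array of the active-compound experiment at 10, 24 and 48 h; circles are the active compound, drawn left of squares for vehicle, and bars are group means. For GARS1, AARS1, WARS1 and SARS1 the groups separate at 24 h and 48 h and not upward at 10 h, whereas PARS2 is separate at 10 h and 24 h and overlaps at 48 h.

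Among mitochondrial synthetases, PARS2 (prolyl) and MARS2 (methionyl) rose on average and FARS2 (phenylalanyl) fell. PARS2 had 6.89 and 6.82 with the active compound at 10 h, against 6.43, 6.56 and 6.52 with vehicle (0.36, SE 0.09, adjusted p = 0.0479). It had 6.84 and 6.81 with the compound at 24 h, against 6.51, 6.54 and 6.42 with vehicle (0.33, adjusted p = 0.0621), and 6.89, 6.77 and 6.59 at 48 h, against 6.68, 6.55 and 6.66 (0.12, adjusted p = 0.396). The groups were apart at 10 h and 24 h and overlapped at 48 h, and the average was 0.27 (SE 0.05, adjusted p = 0.00105). PARS2 is the dimmest member, with a mean of 6.74 beside the filter's threshold of 6.655, and no detection p-value was used. Its call at 10 h was kept under 2 of 10 alternative settings and, of 5 arrays, only without active-compound replicate 2, while its average was kept under 9 of 10 and without each of 16 arrays.

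MARS2 had 9.51 and 9.34 at 10 h, 9.26 and 9.37 at 24 h and 8.99, 9.14 and 9.26 at 48 h with the active compound. With vehicle it had 9.28, 9.24 and 9.20, then 8.99, 9.14 and 9.23, then 8.85, 9.01 and 9.00. The treated arrays were above at 10 h and 24 h and overlapped vehicle at 48 h, and the average change was 0.19 (SE 0.05, adjusted p = 0.0291). That call was lost without active-compound replicate 1 at 10 h, 2 at 24 h or 3 at 48 h, or vehicle replicate 3 at 10 h, 1 at 24 h or 1 at 48 h (adjusted p from 0.0502 to 0.115). Its level also fell with time in culture: the vehicle arrays at 48 h were 0.29 below those at 10 h (SE 0.09, adjusted p = 0.0328). FARS2 fell by 0.16 on average (SE 0.05, adjusted p = 0.0492), a call lost when any one of 13 of the 16 arrays was left out (adjusted p up to 0.16) and kept under 4 of 10 settings. EARS2, the glutamyl enzyme, fell at 48 h, with 8.19, 8.28 and 8.25 under the compound and 8.67, 8.58 and 8.44 under vehicle (-0.32, SE 0.09, adjusted p = 0.0172), and its probe matches a transcript record listed as non-coding. Without active-compound replicate 1, vehicle replicate 1 or vehicle replicate 2 at 48 h, its adjusted p was 0.0652, 0.0985 and 0.0604.

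HARS1 and HARS2, the cytosolic and mitochondrial histidyl enzymes, lie head to head on opposite strands with start sites 85 bases apart in GRCh38.p14. HARS1 had 9.98 and 10.42 with the active compound at 10 h, against 10.41, 10.52 and 10.61 with vehicle, and 10.59, 10.69 and 10.67 at 48 h, against 10.25, 10.45 and 10.40. It thus lay below vehicle at 10 h in mean and above it at 48 h, and the difference between these changes was 0.59 (SE 0.14, adjusted p = 0.0179), although neither change passed by itself (adjusted p = 0.127 and 0.0697). Without active-compound replicate 1 at 10 h, the lowest of these arrays, the difference was 0.37 (adjusted p = 0.211), and it also missed the threshold without vehicle replicate 3 at 10 h (0.0532) or replicate 1 at 48 h (0.0513). HARS2 changed by 0.03 and 0.05 at these times, and the 2 changes differed by 0.02 (adjusted p = 0.96). In all, 5 of 33 synthetases passed for the change at 48 h against that at 10 h, beside 5.11% of all genes (2.89% higher and 2.23% lower). AARS1, HARS1, SARS1 and WARS1 were higher at 48 h and EARS2 was lower (-0.45, SE 0.13, adjusted p = 0.0429), the last kept under 4 of 10 alternative settings (adjusted p up to 0.403) and lost without any one of 8 of the 11 arrays.

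In vehicle arrays of the same experiment, some members were also called for time alone. At 48 h against 10 h, 3 of 33 passed, beside 11.7% of all genes (6.02% higher and 5.72% lower). This count is close to the share of all genes and is no result about the synthetases as a group. AARS1 (0.26, SE 0.08, adjusted p = 0.0296) and MARS1 (0.25, SE 0.07, adjusted p = 0.0238) were higher, and MARS2 was lower. Without vehicle replicate 3 at 10 h, the array on the 24 h side, AARS1 and MARS1 still passed and MARS2 did not (adjusted p = 0.0514). Every one of the 3 was lost without 10 h replicate 2 or 48 h replicate 1 or 3. Of 6 fits without 1 array, AARS1 was kept in 1, MARS1 in 2 and MARS2 in 1, and of 9 alternative settings in 6, 6 and 7. None passed in the vehicle arrays of the inactive-compound experiment, where 0 of all genes passed and 240 had an unadjusted p under 0.05, and none passed without the 4 displaced arrays.

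With cyclophosphamide itself no synthetase passed the test at 10 h, 24 h, 48 h or on average. Of all genes 0 passed, a background of 0%, in the same limma fit at every time. An unadjusted p under 0.05 was seen for 2 synthetases at 10 h, 0 at 24 h, 0 at 48 h and 2 on average, and for 523, 110, 155 and 450 of all genes. The smallest p among members at 10 h belonged to GARS1, with 12.35, 12.66 and 12.51 with cyclophosphamide against 12.09, 12.26 and 12.06 with vehicle (0.37, SE 0.15, adjusted p = 0.956). MARS1 had 9.75, 10.14 and 10.32 with cyclophosphamide against 9.57, 9.73 and 9.70 with vehicle (0.40, SE 0.18), and TARS1 had 11.11, 11.22 and 11.48 against 10.90, 11.03 and 11.06 (0.27, SE 0.13). The groups of these 3 did not overlap at 10 h, with or without replicate 3 of both groups, which lay on the 24 h side. The 3 were named for their small p-values, and the share of all genes without overlap was not computed, so the separation adds no support. The values without the displaced arrays were 0.33 for GARS1 (SE 0.14), 0.29 for MARS1 (SE 0.15) and 0.20 for TARS1 (SE 0.14), with adjusted p = 0.969 for each. At 24 h the smallest p-values were those of CARS1 (0.24, SE 0.15), PARS2 (0.23, SE 0.18) and GARS1 (0.19, SE 0.15), and at 48 h those of FARS2 (-0.19, SE 0.14), AARS1 (0.31, SE 0.26) and CARS2 (-0.24, SE 0.20), with adjusted p = 1 for each. At 24 h CARS1, PARS2 and GARS1 had differences of 0.16, 0.21 and 0.10 without the displaced arrays.

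The direction of the classes was nevertheless alike in sign. Averaged over the times, 15 of 19 cytosolic changes with cyclophosphamide were positive, with a median of 0.06, and 1 of 14 mitochondrial changes was positive, with a median of -0.06. Over all genes 49.4% were positive, with a median of -0.00. Leaving out the 4 displaced arrays, 13 of 19 and 4 of 14 were positive, with medians of 0.04 and -0.06. By time, the cytosolic medians were 0.12, 0.07 and 0.07 and the mitochondrial ones -0.05, -0.01 and -0.11 at 10 h, 24 h and 48 h. By time, and again without those arrays, the cytosolic median was 0.11 at 10 h and 0.01 at 24 h, and the mitochondrial one -0.06 and 0.01, with 0 members called. Much of the cytosolic value at 24 h thus came with replicate 3, where the class median was 0.19 with cyclophosphamide and 0.02 with vehicle. Array by array, the mitochondrial medians at 10 h were -0.05, -0.08 and -0.02 with cyclophosphamide and 0.02, 0.06 and 0.04 with vehicle. At 48 h they were -0.05 and -0.05, against 0.09 and 0.10. The cytosolic medians at 48 h were 0.00 and 0.02, against -0.06 and -0.04. These groups did not overlap, while the cytosolic ones at 10 h and both classes at 24 h did.

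Treated and vehicle arrays of one run, as read from the letters in the titles, deviated together in the inactive-compound experiment. Among its 8 such pairs, AARS1 was higher with cyclophosphamide in 8 of 8 (differences from 0.01 to 0.41, median 0.23) and SARS1 in 8 of 8 (from 0.03 to 0.32, median 0.14). GARS1, CARS1, LARS1, MARS1 and YARS1 were each higher in 7 of 8, while HARS1, FARS2 and LARS2 were each higher in 1 of 8. In the 6 pairs without a displaced array these counts were 6 of 6 for AARS1 and SARS1, 5 of 6 for the next 5 genes and 1 of 6 for the last 3. These genes were named because they lie at the ends of the range, and the share of all genes with such counts was not computed. The pairs also repeat the same runs over the times, so they do not count as independent replicates. With the run as a block in the limma fit, 7 members (6 cytosolic) had an unadjusted p under 0.05 on average, against 2 without it. Over all 10598 genes the number was 1176 with the block and 450 without it, so the rise was not limited to the synthetases. After adjustment 0 members passed and 10 of all genes did. The lowest adjusted p of a member in that fit was 0.234, for GARS1.

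**Figure D4:**
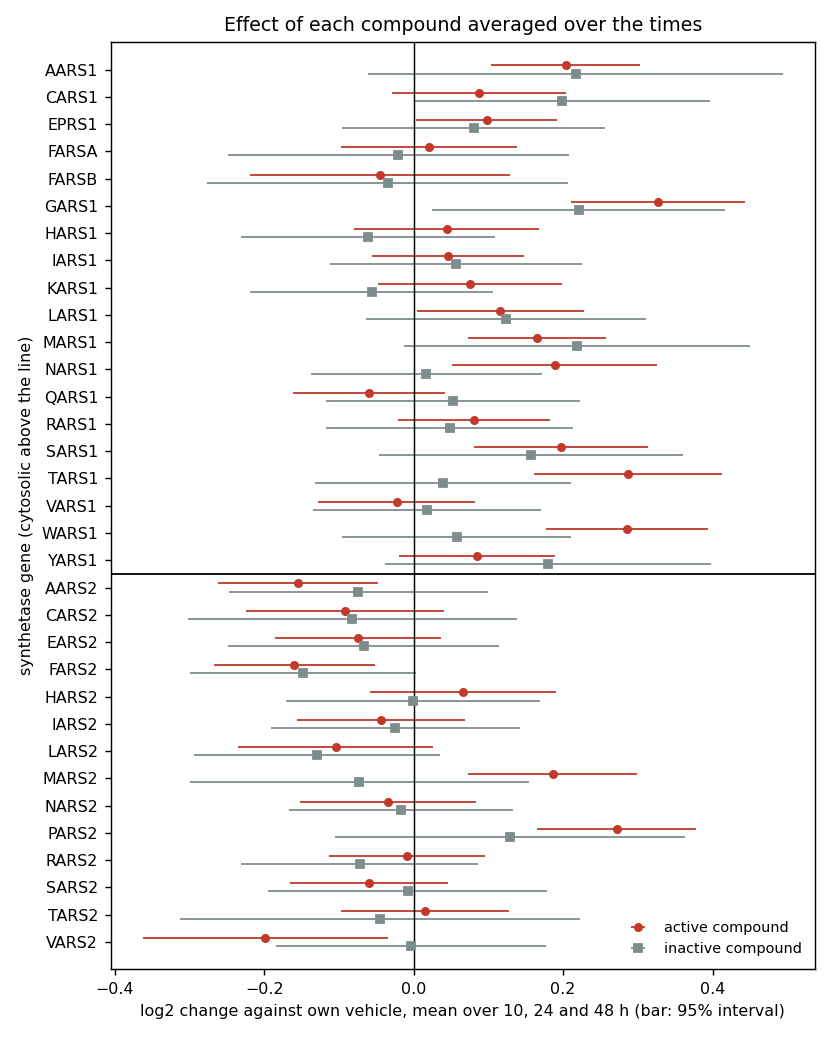
Log2 change of each synthetase against its own vehicle, averaged over 10, 24 and 48 h, with 95% intervals; circles are the active compound, drawn above squares for the inactive one, and cytosolic genes stand above the line. Most cytosolic points lie right of 0 for both compounds, and the intervals of the inactive compound are wider.

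The compounds were set against each other as the difference of their effects, in 1 fit over the 32 arrays with a weight per experiment, for 33 members at 3 matched times and on average, and adjusted over all genes. No member passed at 10 h, 24 h, 48 h or on average, beside 0.0189%, 0.0283%, 0.0189% and 0.179% of all genes. An unadjusted p under 0.05 was seen for 1, 2, 1 and 3 members and for 722, 384, 545 and 940 genes. WARS1 differed most at 48 h, by 0.57 (95% interval 0.22 to 0.93, adjusted p = 0.401). On average it differed by 0.23 (0.04 to 0.42), TARS1 by 0.25 (0.02 to 0.47) and MARS2 by 0.26 (0.02 to 0.50), each higher with the active compound, with adjusted p = 0.44, 0.5 and 0.502. At 10 h YARS1, the tyrosyl enzyme, differed by -0.48 (-0.85 to -0.11, adjusted p = 0.567), and at 24 h WARS1 by 0.33 (0.02 to 0.65) and TARS1 by 0.38 (0.00 to 0.76), both with adjusted p = 1. Leaving out the displaced arrays, 0 members passed either, beside 8, 3, 15 and 54 of all genes, and the averages were 0.26 for WARS1 (0.06 to 0.46, adjusted p = 0.288), 0.31 for TARS1 (0.08 to 0.54, adjusted p = 0.261) and 0.25 for MARS2 (0.02 to 0.48, adjusted p = 0.384). WARS1 at 48 h then had an adjusted p of 0.175, and YARS1 differed by -0.42 at 10 h, WARS1 by 0.41 and TARS1 by 0.50 at 24 h.

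For other members the averages were closer together, within intervals that leave room for a difference. AARS1 averaged 0.20 with the active compound and 0.22 with the inactive one, a difference of -0.01 (95% interval -0.27 to 0.25). SARS1 averaged 0.20 and 0.16 with these compounds (difference 0.04, -0.19 to 0.27), MARS1 0.17 and 0.22 (-0.05, -0.27 to 0.16) and GARS1 0.33 and 0.22 (0.11, -0.12 to 0.33). FARS2 averaged -0.16 and -0.15 (-0.01, -0.20 to 0.17). Without the displaced arrays these differences were -0.02 for AARS1, 0.07 for SARS1, 0.02 for MARS1, 0.15 for GARS1 and 0.00 for FARS2, and every one of their intervals included 0. The effects were therefore neither shown to differ nor shown to be the same. Since the compounds were run in separate experiments, compound and experiment cannot be told apart.

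The promoters of these genes were searched for the letters TGATGNAA, the core of the composite element bound by ATF4 with C/EBP proteins, on both strands, in RefSeq windows (GRCh38.p14) from 250 bases before to 50 bases after each start site. Windows were found for 30 of the 35 genes, and none was listed for LARS1, VARS1, YARS1, AARS2 and VARS2. The motif occurred in 7 of 16 cytosolic genes (43.8%), in 1 of 14 mitochondrial genes (7.14%) and in 1217 of 27305 genes with a window (4.46%), or 3.62% of all windows. The full form TGATGCAAT, which contains the core, was present in TARS1 alone of these genes and in 0.236% of all windows. The 4 cytosolic genes with the motif that passed the test on average are shown whole, in gene orientation, 5′ to 3′, with the matched 8 bases in capitals. They read TTGCATCA or TTTCATCA where the match lies on the opposite strand.
AARS1 (chr16:70289457-70289756, minus strand): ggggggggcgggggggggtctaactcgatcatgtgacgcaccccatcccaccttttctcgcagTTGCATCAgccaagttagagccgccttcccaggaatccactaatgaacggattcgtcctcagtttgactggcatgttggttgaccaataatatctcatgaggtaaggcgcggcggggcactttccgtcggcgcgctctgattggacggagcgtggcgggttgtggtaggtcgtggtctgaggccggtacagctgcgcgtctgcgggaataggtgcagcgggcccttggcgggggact
GARS1 (chr7:30594628-30594927, plus strand): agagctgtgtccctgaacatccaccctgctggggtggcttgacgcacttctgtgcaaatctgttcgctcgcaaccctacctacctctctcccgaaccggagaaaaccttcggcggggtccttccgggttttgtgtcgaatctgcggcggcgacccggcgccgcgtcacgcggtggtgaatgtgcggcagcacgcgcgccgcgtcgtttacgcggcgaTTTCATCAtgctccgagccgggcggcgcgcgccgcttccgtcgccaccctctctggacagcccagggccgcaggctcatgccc
MARS1 (chr12:57487818-57488117, plus strand): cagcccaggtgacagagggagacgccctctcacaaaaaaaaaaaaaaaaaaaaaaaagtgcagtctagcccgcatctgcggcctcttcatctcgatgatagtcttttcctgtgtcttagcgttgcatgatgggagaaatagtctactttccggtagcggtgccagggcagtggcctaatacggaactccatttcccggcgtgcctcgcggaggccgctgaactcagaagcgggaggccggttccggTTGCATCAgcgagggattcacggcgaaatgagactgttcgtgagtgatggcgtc
TARS1 (chr5:33440715-33441014, plus strand): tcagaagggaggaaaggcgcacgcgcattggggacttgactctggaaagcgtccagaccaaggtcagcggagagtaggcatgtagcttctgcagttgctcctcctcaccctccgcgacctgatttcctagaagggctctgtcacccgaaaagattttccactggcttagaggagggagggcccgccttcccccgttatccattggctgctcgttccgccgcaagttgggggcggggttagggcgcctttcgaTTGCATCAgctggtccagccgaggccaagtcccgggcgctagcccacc

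The matches began 187 bases before the start site in AARS1, 33 before in GARS1, 4 before in MARS1 and 2 bases after it in TARS1. Distances are from the start site of the window that holds the match. A gene counted as matched if any of its windows held the motif. GARS1, TARS1 and CARS1 each have another listed window, from another start site, without a match. The other matches are shown as 30-base stretches, with the same use of capitals. CARS1, IARS1 and NARS1 did not pass the test, and YARS2 had no probe and was not tested. They began 2 bases before the start site in CARS1, 13 before in IARS1 and 197 before in YARS2, and 14 bases after it in NARS1. All matches but those in AARS1 and YARS2 thus lay within 33 bases of the start site.
CARS1 (chr11:3057407-3057436, minus strand): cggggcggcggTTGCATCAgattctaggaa
IARS1 (chr9:92293692-92293721, minus strand): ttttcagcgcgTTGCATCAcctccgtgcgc
NARS1 (chr18:57621804-57621833, minus strand): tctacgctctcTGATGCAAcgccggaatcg
YARS2 (chr12:32756076-32756105, minus strand): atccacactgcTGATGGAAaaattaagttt

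On average over the times, 4 of the 7 cytosolic genes with a match passed the test with the active compound, all 7 were positive, and their median change was 0.19. Of the 9 with a window and no match, 2 passed (WARS1 and SARS1), 7 were positive, and the median was 0.08. With the inactive compound the medians were 0.20 (7 of 7 positive) and 0.05 (5 of 9 positive), and none passed. Without the 4 displaced arrays they were 0.12 (5 of 7 positive) and 0.03 (6 of 9 positive). A match is a description of letters, not of binding, and the difference between the sets was not tested.

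**Figure D5:**
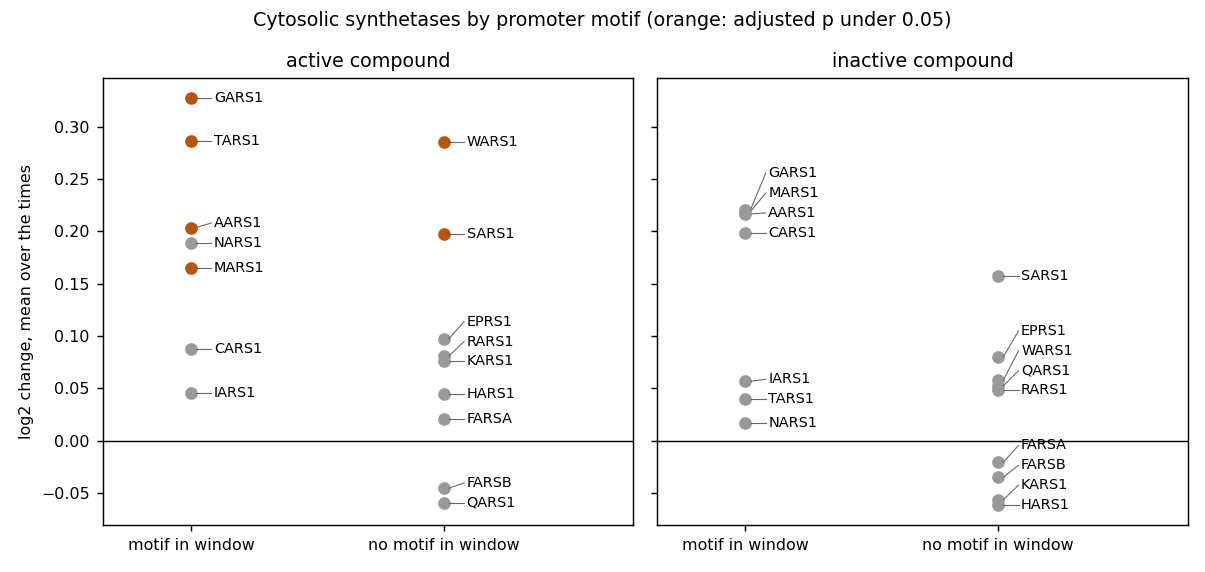
Log2 change averaged over 10, 24 and 48 h of 16 cytosolic synthetases, split by whether the promoter window holds the motif, for the active compound (left panel) and the inactive one (right panel). Orange points passed an adjusted p of 0.05: 4 of 7 with the motif and 2 of 9 without it for the active compound, and none for the inactive one.

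Other genes of amino acid supply were read beside the synthetases. Of 16 genes of the amino acid response, 15 passed the filter. With the active compound 1, 10, 9 and 13 of them passed the test at 10 h, 24 h, 48 h and on average. The shares of all genes were 1.65%, 1.92%, 9.79% and 10.9%. On average 12 were higher and 1 lower, while the calls at each single time were all higher. The median changes of the list were -0.01, 0.44, 0.45 and 0.32. At 10 h the 1 call was EIF2S1, the eIF2 alpha subunit (0.35, adjusted p = 0.0425). At 24 h the calls were all higher: ATF3, a stress-induced transcription factor (1.81, SE 0.11), TRIB3, a pseudokinase that restrains ATF4 (1.01, SE 0.12), ASNS, asparagine synthetase (0.87, SE 0.11), and DDIT3, the factor CHOP (0.77, SE 0.10). With them came CEBPB (0.60), CEBPG (0.42), CHAC1, which degrades glutathione (0.56), PHGDH and PSAT1 of serine synthesis (0.45 and 0.44) and CTH of cysteine synthesis (0.40). ATF4 itself rose by 0.25 on average (SE 0.05, adjusted p = 0.00326), and EIF2AK4 fell by 0.21 (SE 0.05, adjusted p = 0.0116). Over all 15 genes the median at 24 h was 0.44, beside 0.18 over all 19 cytosolic synthetases, called or not. Of the synthetases called at 24 h, GARS1 changed by 0.49, more than PHGDH, PSAT1, CEBPG and CTH. AARS1 changed by 0.35, less than each called gene of the list.

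With cyclophosphamide 14 of these 15 genes were positive on average, with a median of 0.18, and 0 passed (14 positive, a median of 0.16 and 0 passing without the displaced arrays). ASNS averaged 0.51 with the active compound and 0.71 with the inactive one (difference -0.20, SE 0.20, adjusted p = 0.853), whereas ATF3 averaged 1.07 and 0.12 (difference 0.95, SE 0.15, adjusted p = 0.00115). Those differences without the displaced arrays were -0.14 (adjusted p = 0.726) and 0.92 (adjusted p = 0.000935). With all arrays, ATF3 was the only gene of the list that passed for the difference between the compounds. Without the displaced arrays ASNS also passed at 10 h, with the opposite sign (-1.20, adjusted p = 0.0182).

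Genes on either side of tRNA charging were few, and none was called higher with the active compound. At the share of all genes called higher, 0 such calls among so few genes is no result about them. Of 10 other charging and proofreading genes 8 passed the filter. Beside 5.41% of all genes higher and 5.5% lower on average with the active compound, 0 of the 8 were called higher and 3 lower. These were DTD2, a deacylase that removes mischarged amino acids (-0.30, SE 0.05, adjusted p = 0.000212), DTD1, a related deacylase (-0.21, SE 0.05, adjusted p = 0.0108) and GATB of the mitochondrial glutaminyl-tRNA pathway (-0.20, SE 0.06, adjusted p = 0.0256). DTD2 had 8.53 and 8.73 at 24 h with the compound, against 9.16, 9.09 and 9.16 with vehicle (-0.51, SE 0.09, adjusted p = 0.00127), without overlap. With the active compound 3 of the 8 were positive on average, with a median of -0.02. With cyclophosphamide 0 of the 8 passed and 0 were positive on average, with a median of -0.13. DTD2 was the lowest of these, at -0.28. Without the displaced arrays 0 were positive and the median was -0.11. None of the 8 passed for the average difference between the compounds. Of the elongation factors that receive charged tRNA, 4 cytosolic and 5 mitochondrial genes passed the filter. Of these, 0 passed the test at any time or on average, beside 10.9% of all genes on average, which is near 0 for so few genes. On average 0 cytosolic and 1 mitochondrial gene had an unadjusted p under 0.05. EEF1A1, 1 of the 4, gives no information here, since its probe was the brightest on 15 of 16 arrays and quantile normalisation gave it the same value on each of them. Of the 3 scaffold genes of the multisynthetase complex none could be tested: AIMP1 did not pass the filter, and AIMP2 and EEF1E1 had no annotated probe.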

How the data were processed

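Gene expression was measured on 32 single-colour Illumina arrays of PC-3 cells. The authors deposited a table of linear intensity for 20589 probes and a matrix of processed log2 values. BeadStudio and R 2.12.0 are named, per the submitters' processing notes, but the normalization behind the log2 matrix is not given in the sources at hand. From the intensity table, limma 3.58.1 (R 4.3.3) made background-corrected (normexp, offset 50) and quantile-normalised log2 levels across the 32 arrays. Platform annotation gave 18332 probes 1 gene symbol, and 2257 were unlisted. Probes in the upper 60% by mean log2 were kept, with the brightest per gene, which left 10598 genes. IARS1 had a second, dimmer probe (mean 5.90, against 10.85) that was not kept.

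Each experiment was fitted on its own 16 arrays with a mean per group (lmFit, eBayes). Differences between compounds came from 1 fit with a weight per experiment (1.72 active, 0.582 inactive). Over 15 comparisons each p was adjusted by Benjamini-Hochberg over all genes, and a gene was called at an adjusted p under 0.05. The number of arrays, 2 or 3 a group, limits the precision. The code was tested on simulated data. Group membership came from the labels, which carry no replicate numbers, so arrays were numbered in accession order. Letters in the titles give runs. Treated and vehicle arrays of a run deviated together in all 8 pairs of the inactive-compound experiment (correlations from 0.160 to 0.688). Its 2 pairs at 48 h share 1 value by construction, since deviations in a group of 2 arrays are mirror images. Run 3 at 10 h and 24 h holds the displaced arrays. In the active-compound experiment the correlations ran from -0.0447 to 0.248, with 1 of 7 pairs below 0.1. Whether runs pair those arrays is not settled, and the fit without the run was kept as the main one.

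The synthetases, the gene lists, the class comparison and the promoter motif were chosen with earlier results of these data known. Named are the members called in a comparison, or the 3 with the smallest p where none is called, with array values for the 8 called most often (at least 2 mitochondrial) and GARS1 and KARS1 always; array values of EARS2, HARS1 and DTD2 and the pairwise counts were added after their values were seen. Promoter windows are RefSeq's for GRCh38.p14. Alternatives were the background correction, the scaling, the authors' log2 values, the probe filter, the prior, 1 shared spread, the run as a block and leaving out arrays.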

Additional observations from a re-analysis of the deposited data

Results flagged for a closer look

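In the active-compound experiment 5 synthetase transcripts changed differently at 48 h than at 10 h, by a test of the difference itself (limma, 16 arrays, adjusted over all genes). The change at 48 h minus the change at 10 h was 0.53 for AARS1, 0.59 for HARS1, 0.56 for SARS1, 0.58 for WARS1 and -0.45 for EARS2, with adjusted p of 0.00865, 0.0179, 0.017, 0.0082 and 0.0429. At 10 h the mean change was -0.14, -0.31, -0.15, -0.02 and 0.13 for these genes, and at 48 h it was 0.40, 0.28, 0.41, 0.56 and -0.32. Without active-compound replicate 1 at 10 h, WARS1 alone still passed. The call of EARS2 was kept under 4 of 10 alternative settings and without 3 of 11 arrays.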

How the results depend on the processing

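No called member changed direction under any setting. Against 1, 2, 5 and 9 members called with the active compound at 10 h, 24 h, 48 h and on average, 1 shared spread for both experiments called 0, 0, 1 and 3 (of all genes 25, 16, 169 and 183, against 175, 203, 1038 and 1156), and median scaling called 0, 0, 3 and 4. At 10 h the count was also 0 with the run as a replicate block, with no background correction, with quantile scaling within each experiment, with the authors' log2 values, with no filter and with a trended and robust prior. With no filter 1 was called at 24 h. The replicate block gave 0, 2, 6 and 8 members at these contrasts (86, 184, 1334 and 1188 of all genes), and in the inactive-compound experiment it changed no member's call.

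Of all genes, median scaling called 42 higher and 28 lower at 10 h, 61 and 18 at 24 h, 319 and 147 at 48 h and 399 and 168 on average, against 58 and 117, 120 and 83, 523 and 515, and 573 and 583. It moved the median of all genes by 0.05 at most. For the vehicle at 48 h against 10 h the 3 members called became 0 with a shared spread, 0 with no filter and 5 with the trended prior, and for the change at 48 h against 10 h the 5 became 0 with a shared spread and 0 with median scaling. The cytosolic median at 10 h was 0.0205 under the block and 0.0163 with the authors' values (against 0.0561), the mitochondrial one 0.0551 with median scaling (against -0.03), and the cytosolic one at 48 h 0.18 with median scaling (against 0.13). The cause of these moves was not tested.

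WARS1 at 48 h and the averages of WARS1, GARS1 and TARS1 passed under all 10 settings. Leaving out 1 array at a time gave 0 to 7 members at 10 h (7 without active-compound replicate 2, when 1090 genes passed), 0 to 1 at 24 h (0 without active-compound replicate 1, 1 without any other), 4 to 5 at 48 h and 6 to 10 on average. For the vehicle over time it gave 0 to 2 (0 without 10 h replicate 2 or 48 h replicate 1 or 3, 1 without 10 h replicate 1), and for 48 h against 10 h 1 to 7 (1 without active-compound replicate 1 at 10 h, 3 without vehicle replicate 3 at 10 h or vehicle replicate 1 at 48 h). For the inactive compound and the differences between compounds it gave 0 to 0. Class medians with the active compound ranged over these fits from 0.00817 to 0.0447 (cytosolic) and from -0.0748 to -0.00324 (mitochondrial) at 10 h and from 0.0782 to 0.148 (cytosolic) at 48 h. With the inactive compound they ranged from -0.106 to -0.0270 (mitochondrial, 10 h), from -0.0297 (without cyclophosphamide replicate 3) to 0.0946 (cytosolic, 24 h) and from -0.0585 to -0.0255 (mitochondrial, average).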
